A study of Mus musculus with 16 samples.

Results

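Hox genes encode homeodomain transcription factors that give cells along the head to tail axis their positional identity. The count table named 39 protein-coding mouse genes whose symbol is Hox followed by a cluster letter and a paralog number, and these 39 of 55359 genes in the table are described here. The members were taken by symbol alone, with no use of their levels. The family itself was chosen with earlier results of these data known. The libraries were total RNA, depleted of ribosomal RNA and sequenced by strand, and came from 2 pieces of gut, ileum and duodenum, of each of 8 adult C57BL/6N males on a high fat diet, 5 weeks after tamoxifen. The mutant mice, labelled NFVCT, were Neurog3f/f; Villin-CreERT2 and are named here by that label and the number in their library titles, NFVCT_136, NFVCT_167, NFVCT_168 and NFVCT_177. The control mice, labelled NF, were Neurog3f/f without the recombinase and are named NF_133, NF_134, NF_151 and NF_154. All mice thus carried the floxed Neurog3 allele, and the Villin promoter drives the inducible recombinase in the intestinal epithelium, so genes of muscle or connective tissue are read in cells that the recombinase does not target. Each mouse number appears in the titles of both tissues, and values below follow the order of the mice just given.

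The mouse Hox genes lie in 4 clusters, Hox A on chromosome 6, Hox B on chromosome 11, Hox C on chromosome 15 and Hox D on chromosome 2, with 11, 10, 9 and 9 members. Within a cluster the genes share 1 strand, and genes of low paralog number are in general switched on earlier and closer to the head than genes of high paralog number, a relation known as collinearity. In the gut, Hox genes are known mainly from the mesoderm-derived muscle and connective tissue and from the enteric nervous system, and the related ParaHox genes Pdx1, Cdx1 and Cdx2 from the epithelium. HOX proteins bind DNA together with TALE cofactors of the PBX, MEIS and PKNOX families.

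Totals were 40.9 to 67.2 M counts per library, and levels are given as CPM, counts scaled to a common library size with TMM (trimmed mean of M values). Neurog3, the targeted gene, had 1, 0, 0 and 0 counts in mutant ileum and 0, 1, 0 and 0 counts in mutant duodenum, against 27 to 70 counts in control ileum and 123 to 175 counts in control duodenum. The tissue labels were checked against defining genes: the summed level of Fabp6, Slc10a2, Osr2 and Fgf15 was 753 to 2283 CPM in the 8 ileum libraries and 2.19 to 6.03 CPM in the 8 duodenum libraries. Both tissues of control mice NF_134 and NF_154 held B cell transcripts (Cr2 at 27.6 and 27.1 CPM in ileum, and at 6.95 and 13.1 CPM in duodenum). Exocrine pancreas transcripts summed to 6841 to 153987 CPM in mutant duodenum, where mice NFVCT_167 and NFVCT_177 held the most, against 3.88 to 24203 CPM in control duodenum. The duodenum library of control mouse NF_134 stood apart, with Osr2 at 3.71 CPM against 0 to 0.117 CPM in the other 7 duodenum libraries, and Pdx1 at 19.1 CPM against 33.2 to 87.5 CPM.

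Of the 39 Hox genes, 33 had a count in some library. Hoxc11, Hoxc12, Hoxc13, Hoxd11, Hoxd12 and Hoxd13 had 0 counts in all 16 libraries. A group with 0 counts allows a level of up to 3 counts over its 4 libraries, which was 0.0123 CPM in mutant ileum, 0.0135 CPM in control ileum, 0.0169 CPM in mutant duodenum and 0.0143 CPM in control duodenum. These limits, and the counting intervals given below, cover counting error only. Hoxa11, Hoxa13, Hoxb1, Hoxb13 and Hoxd1 had 1 to 20 counts over the 16 libraries. The end of each cluster that is known for the hindgut, limb and genital tract, paralog groups 11 to 13, was therefore close to undetected, at 0 to 0.0702 CPM for any library in the sum of group 13.

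The summed level of the Hox genes was 77.3 ± 7.73 CPM in mutant ileum, against 17.2 ± 3.77 CPM in mutant duodenum (SD, n = 4 mice each). In control mice the sum was 78.0 ± 24.7 CPM in ileum, against 16.6 ± 3.6 CPM in duodenum. The 4 clusters differed in how much of this they carried. Hox A summed to 7.09 ± 1.20 CPM in mutant ileum against 7.08 ± 1.78 CPM in mutant duodenum, and to 7.99 ± 0.978 CPM in control ileum against 6.50 ± 1.34 CPM in control duodenum, so its ranges overlapped between the tissues. Hox B summed to 47.2 ± 7.46 CPM in mutant ileum against 7.63 ± 1.09 CPM in mutant duodenum, and to 43.1 ± 20.6 CPM in control ileum against 7.43 ± 1.09 CPM in control duodenum. Hox C summed to 19.1 ± 2.34 CPM in mutant ileum against 1.57 ± 0.848 CPM in mutant duodenum, and to 22.5 ± 3.45 CPM in control ileum against 1.87 ± 1.35 CPM in control duodenum. Hox D summed to 3.82 ± 2.29 CPM in mutant ileum against 0.935 ± 0.177 CPM in mutant duodenum, and to 4.37 ± 2.09 CPM in control ileum against 0.840 ± 0.0437 CPM in control duodenum. For Hox B, Hox C and Hox D every ileum library lay above every duodenum library. Hox A made up 9.26% of the summed Hox CPM in mutant ileum and 40.9% in mutant duodenum, and 11.1% in control ileum and 39.2% in control duodenum.

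**Figure D1:**
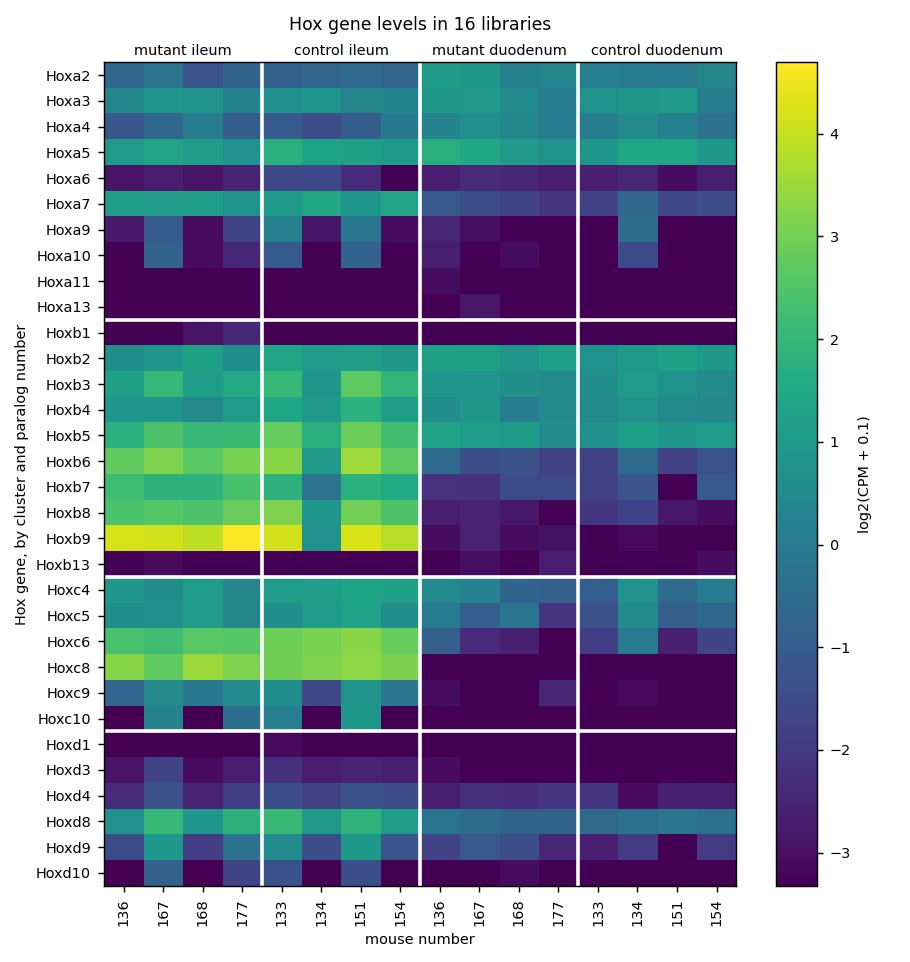
Level of 32 of the 33 Hox genes with a count, as log2(CPM + 0.1), by cluster and paralog number (rows) in the 16 libraries (columns, grouped as mutant ileum, control ileum, mutant duodenum and control duodenum, with mouse numbers below). The bright blocks from Hoxb5 to Hoxb9 and of Hoxc6 and Hoxc8 lie in the ileum columns, Hoxb2, Hoxa3 and Hoxa5 are of like brightness in both tissues, and Hoxa9, Hoxa10, Hoxc10, Hoxd9 and Hoxd10 differ between mice of 1 group.

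Whether the Hox genes differed between ileum and duodenum was tested in the mutant and in the control mice separately, with edgeR's quasi-likelihood F test and Benjamini-Hochberg adjustment over all tested genes, and a gene was called at an adjusted p under 0.05. In mutant mice 20 of the 39 Hox genes passed the filter on low counts, 12 were higher and 2 were lower in ileum, where 31.1% of all tested genes were called (12.9% higher and 18.2% lower). In control mice 21 passed the filter, 16 were higher and 2 were lower in ileum, where 58.3% of all tested genes were called (28.0% higher and 30.3% lower). Genes such as Hoxc8, Hoxb9 and Hoxc9 passed that filter through their ileum libraries only, so the counts describe these genes and are no test of the family. In bulk tissue, fewer cells of a type and less RNA per cell cannot be told apart. Muscle and connective tissue genes moved with the tissue: the summed level of 10 smooth muscle genes was 2557 to 4224 CPM in mutant ileum against 1008 to 1766 CPM in mutant duodenum, and 2268 to 3278 CPM in control ileum against 833 to 1188 CPM in control duodenum. The summed level of 8 fibroblast genes was 778 to 1330 CPM in mutant ileum against 292 to 423 CPM in mutant duodenum, and 873 to 1319 CPM in control ileum against 488 to 742 CPM in control duodenum. With the mean log2 level of the smooth muscle genes as a covariate, which does not overlap between the tissues, 4 Hox genes in mutant mice (Hoxb7, Hoxb8, Hoxb9 and Hoxc8) and 2 in control mice (Hoxa7 and Hoxc8) were called. The covariate took calls from all kinds of genes: 0.879% of all tested genes were called with it in mutant mice and 8.33% in control mice. Some Hox genes that lost the call kept large fold changes with larger errors, Hoxc6 for example at 4.37 ± 1.66 in mutant mice (log2 ± SE, adjusted p = 0.315) and 3.85 ± 1.87 in control mice (adjusted p = 0.278), while others were near 0, such as Hoxb5 at 0.36 ± 0.59 in mutant mice and 0.37 ± 0.72 in control mice.

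Among the tested genes, larger differences between the tissues went with higher paralog numbers. Of the Hox genes of paralog groups 1 to 5, 10 of 15 were tested in mutant mice, with 3 higher and 2 lower in ileum, and 11 of 15 in control mice, with 6 higher and 2 lower. Of those of groups 6 to 9, 10 of 12 were tested in each genotype, with 9 higher in mutant ileum and 10 higher in control ileum and 0 lower in either. The shares over all tested genes were 12.9% higher and 18.2% lower in mutant ileum, and 28.0% higher and 30.3% lower in control ileum. None of the 12 genes of groups 10 to 13 passed the filter of either comparison. Across the tested genes the log2 fold change rose with the paralog number, with a Spearman rho of 0.85 over 20 genes in mutant mice and 0.86 over 21 genes in control mice, given as a description, since genes of 1 cluster share libraries and neighbours, and genes near 0 in duodenum entered through their ileum libraries. Within Hox B rho was 0.98 in mutant mice and 0.95 in control mice over 8 genes. It was 0.7 over the 5 tested genes of Hox A and 0.9 over the 5 of Hox C in each genotype, and Hox D had too few tested genes, 2 in mutant and 3 in control mice. In Hox C the order was broken by Hoxc8, whose fitted value lay above that of Hoxc9 and depends on the prior count.

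**Figure D2:**
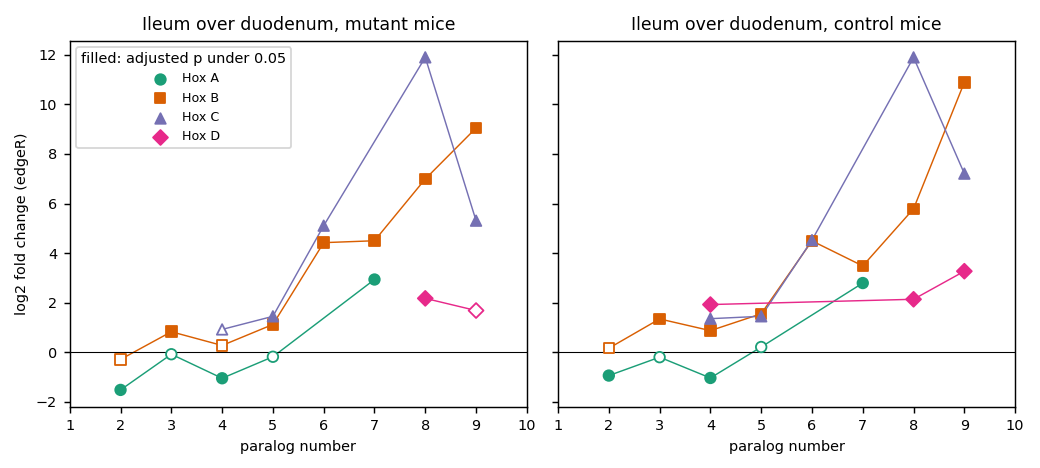
Log2 fold change of ileum over duodenum (edgeR) against paralog number in mutant mice (left) and control mice (right), with a line and symbol per cluster and filled symbols for an adjusted p under 0.05. Values of paralog numbers 2 to 5 lie between -1.51 and 1.45 in mutant mice and between -1.03 and 1.93 in control mice, and Hoxb9 reaches 9.05 in mutant mice. The highest values, of Hoxc8 in both panels and of Hoxb9 and Hoxc9 in control mice, depend on the prior count of the fit, since these genes had 0 or 1 count in duodenum.

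Hoxa2 and Hoxa4, of the low-numbered end of Hox A, were the only called Hox genes that were lower in ileum, in both genotypes. Hoxa2, known for patterning the hindbrain and the second pharyngeal arch, had 0.530, 0.742, 0.315 and 0.484 CPM in mutant ileum against 1.94, 1.82, 1.04 and 1.15 CPM in mutant duodenum. In control mice Hoxa2 had 0.456, 0.517, 0.563 and 0.517 CPM in ileum against 1.0, 0.947, 0.864 and 1.16 CPM in duodenum. Every ileum library was below every duodenum library, and the log2 fold change was -1.51 ± 0.33 in mutant mice (SE, adjusted p = 0.00581) and -0.94 ± 0.22 in control mice (adjusted p = 0.00398). Without control mice NF_134 and NF_154 it was no longer called in control mice. Hoxa4 was also lower in ileum, by a log2 fold change of -1.05 ± 0.34 in mutant mice (adjusted p = 0.0375) and -1.03 ± 0.36 in control mice (adjusted p = 0.0283). It averaged 0.566 ± 0.254 CPM in mutant ileum against 1.17 ± 0.266 CPM in mutant duodenum, and 0.481 ± 0.253 CPM in control ileum against 0.991 ± 0.255 CPM in control duodenum. The call of Hoxa4 was lost without any of mutant mice NFVCT_136, NFVCT_167 or NFVCT_177, and without any of control mice NF_133, NF_134 or NF_151. The promoter of Hoxa2 is shown because it is one of the 2 of 24 Hox promoters, from 22 Hox genes in the RefSeq table (GRCm38.p6), that hold the PBX-HOX-type motif TGATTNAT on either strand, a motif found in 3.22% of all 32851 promoters. The window runs from 250 bases before to 50 bases after the start, chr6:52164782-52165081 on the minus strand, with the match in capitals:
Hoxa2: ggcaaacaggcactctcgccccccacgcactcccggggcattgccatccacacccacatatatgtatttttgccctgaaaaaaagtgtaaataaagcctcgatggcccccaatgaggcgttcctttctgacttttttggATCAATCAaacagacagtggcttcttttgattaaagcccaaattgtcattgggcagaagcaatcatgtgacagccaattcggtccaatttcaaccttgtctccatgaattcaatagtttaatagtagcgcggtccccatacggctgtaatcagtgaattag

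Other members of paralog groups 1 to 5 changed little or moderately between the tissues. Hoxa3, needed for the thymus and parathyroid, had 1.21, 1.71, 1.61 and 1.09 CPM in mutant ileum against 1.78, 1.87, 1.34 and 0.931 CPM in mutant duodenum, and 1.54, 1.67, 1.14 and 1.14 CPM in control ileum against 1.64, 1.80, 1.96 and 0.965 CPM in control duodenum. Hoxa5, known for its roles in lung and gut development, had 2.05, 2.46, 2.11 and 1.58 CPM in mutant ileum against 3.13, 2.67, 1.90 and 1.59 CPM in mutant duodenum, and 3.34, 2.43, 2.25 and 1.97 CPM in control ileum against 1.74, 2.57, 2.57 and 1.83 CPM in control duodenum. The ranges of both genes overlapped between the tissues in each genotype. The 95% interval of the log2 fold change ran from -0.76 to 0.61 in mutant mice and from -0.80 to 0.41 in control mice for Hoxa3. For Hoxa5 it ran from -0.81 to 0.45 in mutant mice and from -0.31 to 0.73 in control mice. Hoxb2, a hindbrain gene, was likewise not called, with intervals from -0.86 to 0.29 in mutant mice and from -0.27 to 0.60 in control mice. In GENCODE M21, 27.3% of the exon bases of Hoxb2 and 25.4% of those of Hoxa3 lie opposite other genes. Their levels are therefore uncertain where the strand setting of the counting is not known.

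Hoxb5, known in mice for its part in the enteric nervous system, had 3.36, 5.40, 3.93 and 4.34 CPM in mutant ileum against 2.38, 2.11, 1.96 and 1.37 CPM in mutant duodenum. It had 6.79, 3.26, 7.33 and 4.67 CPM in control ileum against 1.52, 2.21, 1.81 and 2.05 CPM in control duodenum. The tissues did not overlap in either genotype, and Hoxb5 was higher in ileum in 8 of 8 mice, by a log2 fold change of 1.12 ± 0.23 in mutant mice (adjusted p = 0.00381) and 1.55 ± 0.25 in control mice (adjusted p = 3.88e-04). Without mutant mice NFVCT_167 and NFVCT_177 it was not called in mutant mice. Hoxb3 was higher by 0.83 ± 0.25 (log2, adjusted p = 0.0274) in mutant mice and by 1.35 ± 0.36 (adjusted p = 0.00889) in control mice. The Hoxb3 call was lost without mutant mouse NFVCT_167 or NFVCT_177 and without control mouse NF_133 or NF_154, and its exons share 52.9% of their bases with the opposite-strand gene Hoxb3os in GENCODE M21, so that its level is uncertain where the strand setting of the counting is not known. Hoxb4, known from blood stem cells, had 1.71, 1.72, 1.26 and 2.01 CPM in mutant ileum against 1.47, 1.78, 0.961 and 1.31 CPM in mutant duodenum, and 2.59, 1.86, 3.39 and 2.11 CPM in control ileum against 1.32, 1.64, 1.33 and 1.20 CPM in control duodenum. The tissues overlapped in mutant mice and did not overlap in control mice, and Hoxb4 was called in control mice alone, with log2 fold changes of 0.28 ± 0.25 in mutant mice (adjusted p = 0.446) and 0.87 ± 0.22 in control mice (adjusted p = 0.00577). The test of the difference between these changes gave -0.60 ± 0.33 and an adjusted p of 0.228.

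Hoxc4, also known from B cells, had 1.72, 1.47, 2.04 and 1.17 CPM in mutant ileum against 1.33, 1.08, 0.501 and 0.438 CPM in mutant duodenum. It had 2.0, 2.11, 2.42 and 2.25 CPM in control ileum against 0.420, 1.56, 0.590 and 0.866 CPM in control duodenum, where the value of mouse NF_134 was the highest. It was higher in ileum in 8 of 8 mice, while the ranges overlapped in mutant mice. In control mice it was called with a log2 fold change of 1.36 ± 0.34 (adjusted p = 0.00562), and in mutant mice it missed the threshold at 0.92 ± 0.37 (adjusted p = 0.0799), though it was called there with the mouse number as a block. The interaction term of Hoxc4 was -0.44 ± 0.52 (adjusted p = 0.595). Hoxc5 had 1.51, 1.54, 2.04 and 1.15 CPM in mutant ileum against 0.912, 0.421, 0.773 and 0.137 CPM in mutant duodenum, and 1.47, 1.99, 2.36 and 1.47 CPM in control ileum against 0.300, 1.36, 0.443 and 0.551 CPM in control duodenum. The tissues did not overlap in either genotype, and the log2 fold change was 1.45 ± 0.44 in mutant mice (adjusted p = 0.0270) and 1.45 ± 0.42 in control mice (adjusted p = 0.0122). The call was lost without mutant mouse NFVCT_167 or NFVCT_168 and without control mouse NF_151.

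Hoxd4, a hindbrain and vertebral gene, had 0.0993, 0.294, 0.0699 and 0.179 CPM in mutant ileum against 0.0595, 0.117, 0.104 and 0.137 CPM in mutant duodenum. In control mice it had 0.279, 0.192, 0.300 and 0.269 CPM in ileum against 0.140, 0.0160, 0.0632 and 0.0591 CPM in duodenum. The tissues overlapped in mutant mice, where it did not pass the filter, and were separate in control mice, where the log2 fold change was 1.93 ± 0.52 (adjusted p = 0.00809). Without control mice NF_134 and NF_154 it was not called. Hoxd4 shares 52.3% and Hoxd3 62.3% of their exon bases with same-strand neighbours that include each other, so reads may be split between them or set aside in counting. Hoxd3 had 21 counts in mutant ileum (2, 15, 1 and 3) against 1 count in mutant duodenum. The ratio was 15.2 with a 95% counting interval from 2.45 to 630.1, and most of these ileum counts came from mouse NFVCT_167. In control mice Hoxd3 had 18 counts in ileum against 0 counts in duodenum.

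Hoxb6, Hoxb7, Hoxb8, Hoxc6 and Hoxc8, of paralog groups 6 to 8, were at 0 to 0.899 CPM in the duodenum libraries and, with Hoxb9, had the highest levels per kilobase of exon in mutant ileum. Hoxb6 had 6.69, 8.65, 6.10 and 8.42 CPM in mutant ileum against 0.595, 0.281, 0.292 and 0.192 CPM in mutant duodenum. Control mice had 9.51, 1.94, 11.4 and 6.39 CPM in ileum against 0.200, 0.578, 0.190 and 0.315 CPM in duodenum. The tissues were far apart in both genotypes, with control mouse NF_134 the lowest of the 8 ileum libraries, and the log2 fold change was 4.42 ± 0.32 in mutant mice (adjusted p = 5.60e-06) and 4.49 ± 0.65 in control mice (adjusted p = 7.32e-04). Hoxb7 averaged 4.15 ± 0.749 CPM in mutant ileum against 0.183 ± 0.0754 CPM in mutant duodenum, and 2.58 ± 1.27 CPM in control ileum against 0.228 ± 0.169 CPM in control duodenum, with log2 fold changes of 4.50 ± 0.30 and 3.48 ± 0.76 in mutant and control mice. In control mice its ileum value was 0.728 CPM in mouse NF_134, against 2.79 to 3.42 CPM in the other 3 mice.

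Hoxb8, known from myeloid cells and, in mice, from grooming behaviour, had 5.31, 5.88, 5.44 and 7.29 CPM in mutant ileum against 0.0595, 0.0702, 0.0418 and 0 CPM in mutant duodenum. Control mice had 8.76, 1.76, 7.89 and 5.40 CPM in ileum against 0.140, 0.209, 0.0422 and 0.0197 CPM in duodenum. The lowest ileum library, that of control mouse NF_134, was still above all duodenum libraries, and the log2 fold change was 6.99 ± 0.38 in mutant mice (adjusted p = 1.35e-06) and 5.79 ± 0.73 in control mice (adjusted p = 3.01e-04). Its promoter is shown because 3 matches to TTTATNG, the type of motif that CDX proteins bind, lie in the window chr11:96281655-96281954 (GRCm38.p6, RefSeq, plus strand) before the start and all on the gene's strand, in capitals. The motif was searched on both strands, and 10.9% of all 32851 promoters and 2 of 24 Hox promoters, those of Hoxb8 and Hoxd4, held it. The window of Hoxa7, chr6:52218524-52218823 on the minus strand, holds neither motif and is set beside it because Hoxa7 showed the same direction:
Hoxb8: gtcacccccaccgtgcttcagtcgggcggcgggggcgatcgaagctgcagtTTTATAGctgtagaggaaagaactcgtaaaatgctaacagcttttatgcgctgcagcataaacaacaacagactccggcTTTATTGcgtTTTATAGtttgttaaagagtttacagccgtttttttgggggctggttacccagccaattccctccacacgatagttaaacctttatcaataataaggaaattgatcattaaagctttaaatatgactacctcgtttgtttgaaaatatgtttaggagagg
Hoxa7: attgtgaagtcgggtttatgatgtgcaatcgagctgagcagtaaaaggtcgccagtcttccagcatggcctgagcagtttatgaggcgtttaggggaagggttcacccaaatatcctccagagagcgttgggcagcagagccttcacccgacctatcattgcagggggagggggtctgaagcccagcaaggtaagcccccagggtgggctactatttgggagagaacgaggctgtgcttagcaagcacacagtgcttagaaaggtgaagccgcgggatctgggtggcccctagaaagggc

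Hoxa7 was the Hox A gene with the largest rise in ileum. It had 2.10, 2.0, 2.11 and 1.63 CPM in mutant ileum against 0.377, 0.281, 0.209 and 0.137 CPM in mutant duodenum, and 1.93, 2.64, 1.74 and 2.48 CPM in control ileum against 0.200, 0.546, 0.232 and 0.276 CPM in control duodenum. All ileum libraries lay above all duodenum libraries, mouse NF_134 included, and the log2 fold change was 2.94 ± 0.31 in mutant mice (adjusted p = 6.70e-05) and 2.79 ± 0.32 in control mice (adjusted p = 3.54e-05). In GENCODE M21, 20.4% of its exon bases lie opposite the gene Hoxaas3. Its neighbour Hoxa6 stayed at 0 to 0.235 CPM over the 16 libraries and was not tested.

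Hoxc6, known for the upper thoracic region and brachial motor neurons, had 5.20, 4.58, 6.19 and 6.07 CPM in mutant ileum against 0.436, 0.0936, 0.0627 and 0 CPM in mutant duodenum. Control mice had 7.52, 8.33, 9.55 and 6.97 CPM in ileum against 0.180, 0.899, 0.0632 and 0.217 CPM in duodenum, the highest duodenum value being that of mouse NF_134. The log2 fold change was 5.11 ± 0.64 in mutant mice (adjusted p = 3.84e-04) and 4.52 ± 0.63 in control mice (adjusted p = 6.09e-04). Hoxc8, known for lower thoracic vertebrae and brachial motor neurons, had 9.62, 6.57, 11.1 and 8.81 CPM in mutant ileum and 7.64, 8.72, 9.94 and 8.60 CPM in control ileum, while all 8 duodenum libraries had 0 counts. Against the limit of 3 counts per group, Hoxc8 was at least 526-fold higher in ileum of mutant mice and at least 607-fold higher in ileum of control mice (adjusted p = 2.64e-06 in mutant mice and 2.27e-07 in control mice). The duodenum of control mouse NF_134 was at 0 like the others.

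Hoxd8, the most abundant Hox D gene, had 1.57, 3.92, 1.75 and 3.43 CPM in mutant ileum against 0.773, 0.608, 0.480 and 0.493 CPM in mutant duodenum. In control mice it had 4.22, 1.86, 3.58 and 2.11 CPM in ileum against 0.581, 0.674, 0.780 and 0.669 CPM in duodenum. The ileum values split within each genotype, mutant mice NFVCT_167 and NFVCT_177 and control mice NF_133 and NF_151 being the higher ones, and all were above the duodenum values. The log2 fold change was 2.18 ± 0.35 in mutant mice (adjusted p = 9.79e-04) and 2.14 ± 0.29 in control mice (adjusted p = 9.96e-05).

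**Figure D3:**
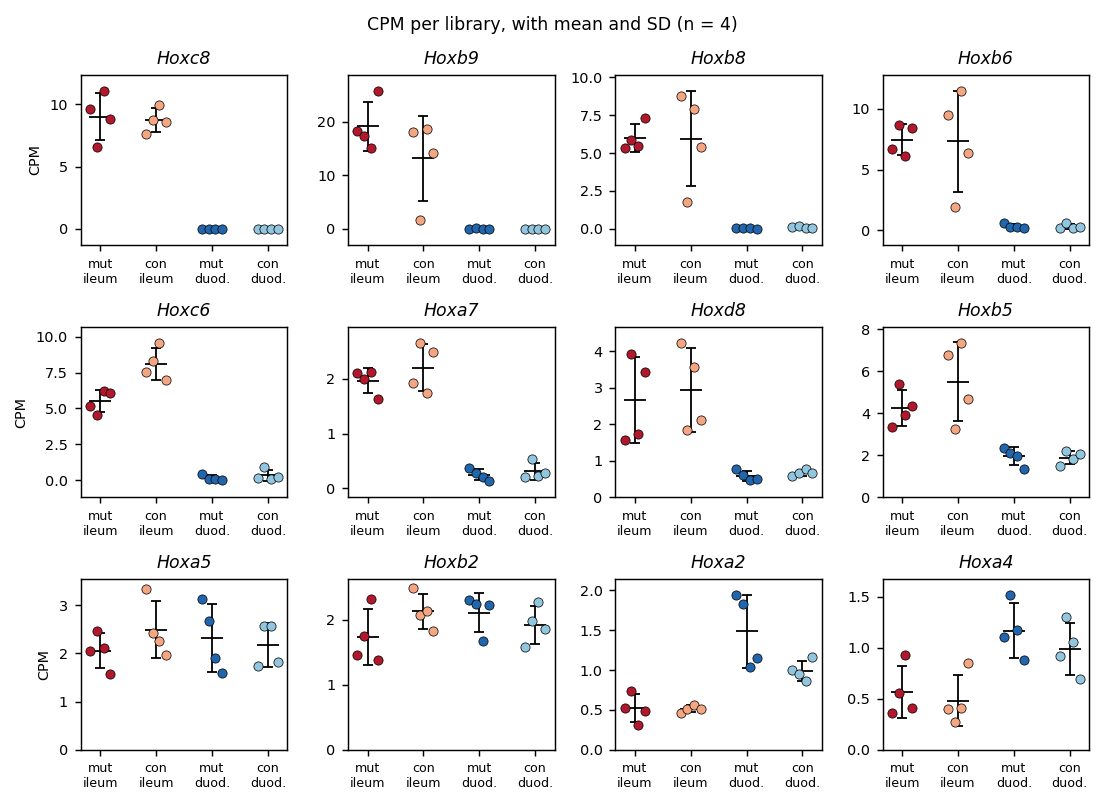
CPM of 12 Hox genes in every library (points), with the mean and SD (bars, n = 4 mice), in mutant ileum, control ileum, mutant duodenum and control duodenum from left to right. Hoxc8 had no counts in duodenum, Hoxa5 and Hoxb2 overlap in all groups, Hoxa2 and Hoxa4 are lower in ileum, and for Hoxb6, Hoxb8 and Hoxb9 the lowest ileum point is control mouse NF_134.

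Paralog group 9 held the most abundant Hox gene of the ileum. Hoxb9, known for the ribs and thoracic region, had 18.3, 17.4, 15.1 and 25.8 CPM in mutant ileum against 0.0198, 0.0702, 0.0209 and 0.0274 CPM in mutant duodenum. In control mice it had 18.1, 1.55, 18.7 and 14.3 CPM in ileum, and the duodenum libraries held 0, 1, 0 and 0 counts. The log2 fold change in mutant mice was 9.05 ± 0.33 (adjusted p = 7.44e-08), and in control mice the ratio of 3002 counts to 1 count was 2848 with a 95% counting interval from 511 to 112515 (adjusted p = 5.65e-04). The ileum of mouse NF_134 was again far below the other 7 ileum libraries. Hoxc9, which in motor neurons marks the thoracic cord, averaged 0.993 ± 0.390 CPM in mutant ileum against 0.0255 ± 0.0389 CPM in mutant duodenum, with a log2 fold change of 5.31 ± 0.70 (adjusted p = 2.69e-04). In control mice it averaged 1.02 ± 0.626 CPM in ileum, with 0.230 CPM in mouse NF_134, and the ratio of 234 counts in ileum to 1 count in duodenum was 222 (95% counting interval from 39.5 to 8804).

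Per kilobase of exon, the scale on which levels of different genes can be compared, Hoxb9 led the mutant ileum at 7.44 CPM per kb, followed by Hoxb6 at 3.80, Hoxc8 at 3.18, Hoxb7 at 2.69, Hoxc6 at 2.29 and Hoxb8 at 2.27 CPM per kb. In mutant ileum the lowest Hoxb9 value lay above the highest Hoxb6 value, while the ranges of Hoxb6 and Hoxc8 overlapped. Control ileum was led by Hoxb9 at 5.11, Hoxb6 at 3.73, Hoxc6 at 3.36 and Hoxc8 at 3.08 CPM per kb, whose ranges overlapped. In duodenum Hoxa5 led, at 1.24 CPM per kb in mutant mice and 1.16 CPM per kb in control mice. Next were Hoxa2 at 0.840, Hoxa4 at 0.733 and Hoxb5 at 0.701 CPM per kb in mutant duodenum, and Hoxb5 at 0.682, Hoxa4 at 0.622 and Hoxa2 at 0.560 CPM per kb in control duodenum. Exon lengths are those of GENCODE M21, an older build than the authors' mm39.

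The other genes of paralog groups 9 and 10 varied widely in ileum between mice of the same genotype. Hoxd9 had 0.265, 1.82, 0.175 and 0.718 CPM in mutant ileum against 0.198, 0.374, 0.272 and 0.0821 CPM in mutant duodenum, and 1.34, 0.268, 1.84 and 0.331 CPM in control ileum against 0.0601, 0.160, 0 and 0.157 CPM in control duodenum. It was called in control mice alone, with log2 fold changes of 1.69 ± 0.74 in mutant mice (adjusted p = 0.113) and 3.27 ± 0.85 in control mice (adjusted p = 0.00952), and the difference between them was -1.60 ± 1.22 (adjusted p = 0.389). Without control mouse NF_133 it was not called in control mice. Hoxd10, known from lumbar motor neurons, had 0, 0.476, 0 and 0.215 CPM in mutant ileum and 0.309, 0, 0.281 and 0 CPM in control ileum. Its duodenum libraries held 1 count in mutant mice and 0 counts in control mice.

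Hoxc10, Hoxa9 and Hoxa10 are named here after their values were seen. Hoxc10, a lumbar gene, had 0, 1.09, 0 and 0.646 CPM in mutant ileum and 0.970, 0, 1.80 and 0 CPM in control ileum, against 0 counts in all 8 duodenum libraries. Summed over the libraries of a group, the ileum level was at least 27.6-fold higher in mutant mice and at least 51.2-fold higher in control mice. The ileum counts of Hoxc10 came from 2 mice of each genotype, and the other mice had 0 counts in both tissues. Hoxa10, known for the uterus and the lumbar spine, had 0, 0.476, 0.0175 and 0.0897 CPM in mutant ileum and 0.382, 0, 0.469 and 0 CPM in control ileum. Hoxa9 had 0.0497, 0.392, 0.0175 and 0.215 CPM in mutant ileum and 1.01, 0.0383, 0.825 and 0.0207 CPM in control ileum. Each of these genes, and Hoxd9 and Hoxd10, was thus highest in mutant mice NFVCT_167 and NFVCT_177 and in control mice NF_133 and NF_151. The 2 control mice with low values, NF_134 and NF_154, were also those with B cell transcripts, while the 2 mutant mice with low values, NFVCT_136 and NFVCT_168, had 0.116 and 0.175 CPM of Cr2 in ileum. The mean log2 level of the smooth muscle genes in ileum split the mice in the same way. It was 7.63 and 8.05 in NFVCT_167 and NFVCT_177, and 7.71 and 7.69 in NF_133 and NF_151. In NFVCT_136 and NFVCT_168 it was 7.35 and 7.49, and in NF_134 and NF_154 it was 7.24 and 7.21. The part of B cell or muscle content in these values was not tested.

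**Figure D4:**
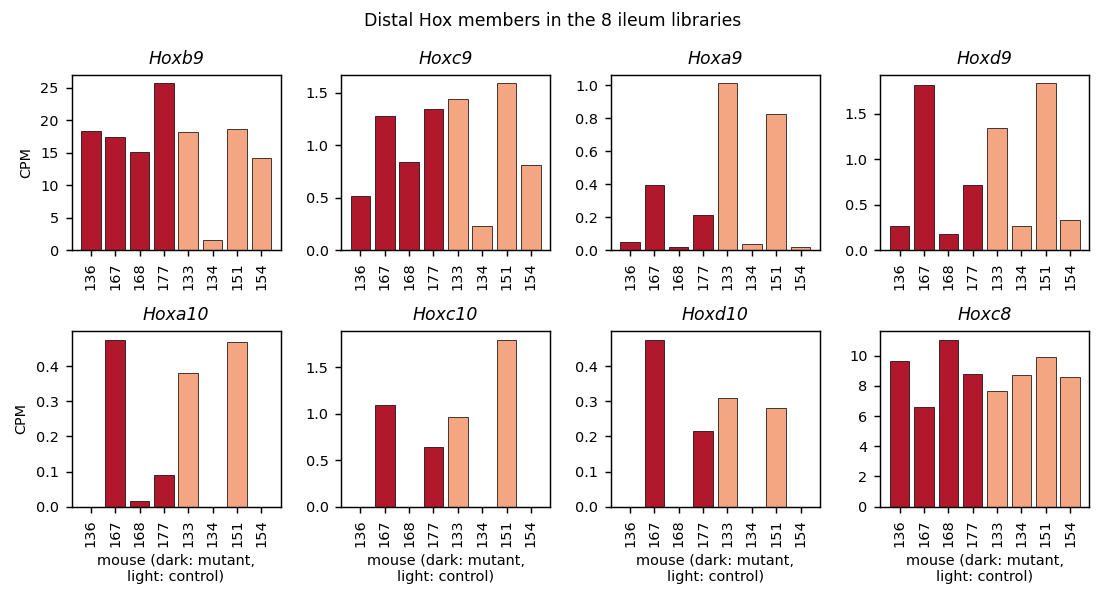
CPM of Hoxb9, Hoxc9, Hoxa9, Hoxd9, Hoxa10, Hoxc10, Hoxd10 and, for contrast, Hoxc8 in each ileum library (bars from 0, 4 mutant mice in dark on the left and 4 control mice in light on the right). Hoxc10 and Hoxd10 had no counts in 4 of the 8 libraries, Hoxb9 and Hoxc9 were lowest in control mouse NF_134, and Hoxc8 was at 6.57 CPM or more in all 8.

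The 2 libraries of control mouse NF_134 differed from those of the other mice in opposite ways. Its ileum was the lowest of 8 for Hoxa4, Hoxb3, Hoxb5, Hoxb6, Hoxb7, Hoxb8, Hoxb9 and Hoxc9. Its ileum Hoxc6 at 8.33 CPM, Hoxc8 at 8.72 CPM and Hoxa7 at 2.64 CPM lay within or above the range of the other control ileum libraries. Its duodenum was the highest of 8 for Hoxc4, Hoxc5, Hoxc6, Hoxa7, Hoxa9, Hoxa10, Hoxb3 and Hoxb8. Without mice NF_134 and NF_154, an alternative added after seeing the data, 20 Hox genes were called between the tissues in control mice in place of 18, with Hoxa9, Hoxa10, Hoxc10 and Hoxd10 gained and Hoxa2 and Hoxd4 lost. The mice left out were the control mice with low or no ileum counts of the gained genes. These gains therefore follow from the choice of mice and are no separate result.

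Whether the loss of Neurog3, the factor that starts the endocrine lineage of the gut, went with other Hox levels was tested within each tissue. In duodenum 0 of 14 tested Hox genes were called, where 8.55% of all tested genes were called (3.44% higher and 5.11% lower). The smallest adjusted p was 0.149, for Hoxa2, with a log2 fold change of 0.62 ± 0.26, and 1 Hox gene had an unadjusted p under 0.05. DESeq2 and limma-voom also called 0. The intervals show what this leaves: for Hoxb3 the log2 fold change lay between -0.50 and 0.54, for Hoxa5 between -0.49 and 0.74, and for Hoxb7, a gene of low level there, between -2.02 and 1.37.

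In ileum 1 of 24 tested Hox genes was called, where 33.6% of all tested genes were called (19.0% higher and 14.6% lower). This was Hoxc6, at 5.51 ± 0.760 CPM in mutant ileum and 8.09 ± 1.12 CPM in control ileum (SD, n = 4 each). All 4 mutant libraries were below all 4 control libraries, and the log2 fold change was -0.53 ± 0.15 (adjusted p = 0.0173). The call was lost without control mouse NF_151 (adjusted p = 0.0535), without mutant mouse NFVCT_136 (0.0505), with all 16 libraries in 1 fit (0.455), without control mice NF_134 and NF_154 (0.0503) and without mutant mice NFVCT_167 and NFVCT_177 (0.0741). Hoxb4 had an unadjusted p of 0.0400, a log2 fold change of -0.55 ± 0.23 and an adjusted p of 0.0963. For Hoxc8 the interval was narrow, from -0.32 to 0.46, whereas for Hoxb9 it ran from -1.04 to 2.17. Smooth muscle genes summed to 3162 ± 747 CPM in mutant ileum and 2750 ± 532 CPM in control ileum (2 of 10 genes called higher), and with them as a covariate the Hoxc6 value was -0.57 (adjusted p = 0.0182). Markers of other cell types went in both directions, where 19.0% of all tested genes were called higher and 14.6% lower. Of 8 epithelial genes 3 were called higher and 0 lower (median log2 fold change 0.26). Of 4 enteric glia genes 0 were called (median -0.55). Of 8 enteric neuron genes 2 were called lower (median log2 fold change -0.46, summed level 52.6 to 73.0 CPM in mutant ileum and 58.0 to 84.2 CPM in control ileum). Of 8 fibroblast genes 2 were called lower (median -0.26, 778 to 1330 CPM in mutant ileum and 873 to 1319 CPM in control ileum), and of 6 B cell genes 5 (median -5.22, 2.83 to 5.23 CPM in mutant ileum and 7.04 to 153.0 CPM in control ileum). The part of these cell types in the Hoxc6 difference was not tested.

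**Figure D5:**
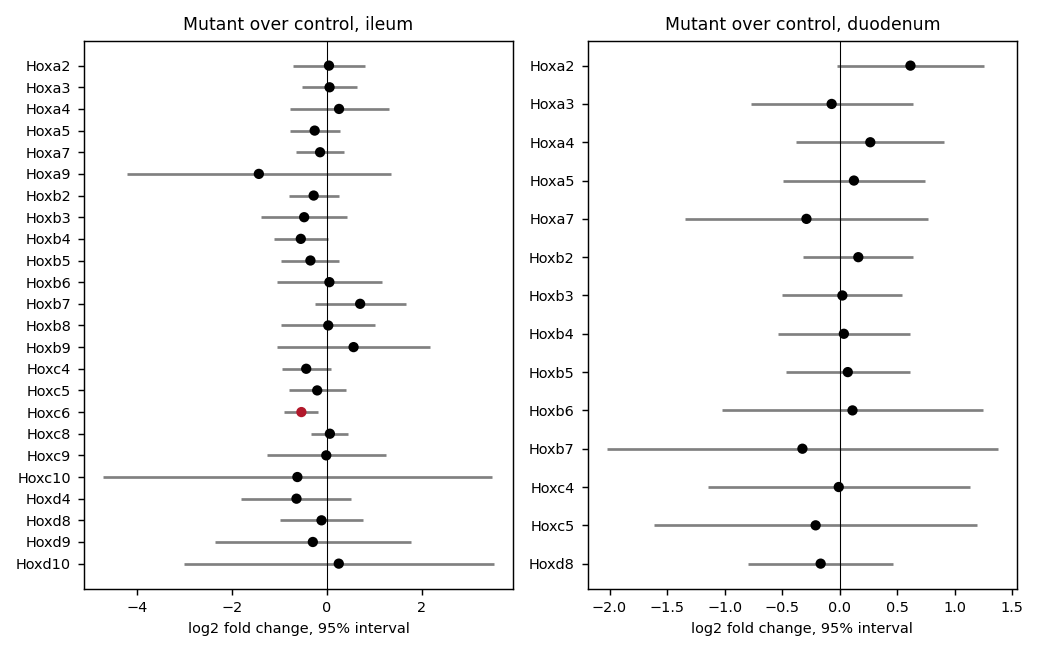
Log2 fold change of mutant over control mice with its 95% interval (edgeR) for each tested Hox gene in ileum (left) and duodenum (right), on separate scales. Hoxc6 in ileum, in red, is the 1 called gene. Hoxc10, Hoxd10 and Hoxa9 in ileum have intervals several log2 units wide.

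The difference between tissues was also compared between the genotypes. The interaction of genotype and tissue was called for 0 of 26 tested Hox genes, where 8.99% of all tested genes were called (4.86% higher and 4.13% lower), and the smallest adjusted p was 0.228 for Hoxb4. No Hox gene had an unadjusted p under 0.05 in edgeR, 1 had in limma-voom and 0 in DESeq2, and neither tool made a call. That Hoxb4, Hoxc4, Hoxd4 and Hoxd9 were called in control mice alone therefore does not show that the tissues differed less in mutant mice. For Hoxb8 the interaction was 1.20 ± 0.95 and for Hoxb9 -1.84 ± 2.2 on the log2 scale, so sizeable differences could go uncalled with errors of this size. This fit took the 2 libraries of a mouse as independent. With the mouse number as a block, 20.9% of all tested genes were called for the interaction, and 0 of the 26 Hox genes.

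Small RNAs and antisense transcripts lie within the clusters. The miR-196 and miR-10 families are printed because their genes sit between Hox genes and, for miR-196, Hoxb8 is a long known target in mice. Mir196a-1 lies in Hox B (chr11:96265187-96265208, plus strand, GRCm38.p6), Mir196a-2 in Hox C (chromosome 15), Mir196b in Hox A (chromosome 6), Mir10a in Hox B and Mir10b in Hox D. The seeds, bases 2 to 8, are in capitals, and the members of each family share theirs:
miR-196a-5p: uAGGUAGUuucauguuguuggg
miR-196b-5p: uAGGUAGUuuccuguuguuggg
miR-10a-5p: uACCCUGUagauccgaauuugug
miR-10b-5p: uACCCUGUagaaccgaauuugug
The site of miR-196a-5p in the Hoxb8 3′ untranslated region pairs at 21 of 22 bases, in capitals, and the 1 difference from a perfect complement is A5G, counted from the 5′ end of the miRNA with the base of the perfect complement first:
Hoxb8 site: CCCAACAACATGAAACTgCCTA

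The perfect seed match of miR-196, ACTACCT, was in the 3′ untranslated regions of 9 of 39 Hox genes (23.1%), against 7.72% of all 21130 genes. Of these, Hoxa4 was lower and Hoxa7, Hoxb6, Hoxb7 and Hoxc8 were higher in ileum. The seed match of miR-10, ACAGGGT, was in 4 of 39 Hox genes (10.3%), against 14.1% of all genes. Reads of the Mir196a-1 locus averaged 0.298 ± 0.123 CPM in mutant ileum against 0.00496 ± 0.00991 CPM in mutant duodenum, with a log2 fold change of 5.25 ± 0.79 (adjusted p = 6.03e-04). In control ileum the locus had 0.558, 0.0192, 0.506 and 0.455 CPM, mouse NF_134 being the lowest as for Hoxb9, and 0 counts in control duodenum. Total RNA libraries are not made to capture mature miRNAs, so these values describe reads of the locus and not the small RNA. Of 15 Hox antisense and noncoding genes 4 were tested in mutant mice, with 2 higher and 1 lower in ileum, and 2 in control mice with 0 called. The shares of all tested genes called between the tissues were 31.1% in mutant mice and 58.3% in control mice. Hoxaas3, antisense to Hoxa3 and Hoxa7, was at 0.548 ± 0.216 CPM in mutant ileum and 0.144 ± 0.0786 CPM in control ileum, a log2 fold change of 1.97 ± 0.47 (adjusted p = 0.00878). It was the 1 call among the 3 genes of this list tested between the genotypes in ileum (33.3%), close to the 33.6% of all tested genes.

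The cofactors and other regional factors were read from the same fits, where 31.1% of all tested genes were called between the tissues in mutant mice and 58.3% in control mice. Of 9 TALE cofactors, all tested, 2 were higher and 2 lower in ileum of mutant mice (44.4% called), and 4 were higher and 1 lower in ileum of control mice (55.6%, close to the share of all genes). Meis1 was higher in ileum by 0.60 ± 0.20 in mutant mice (adjusted p = 0.0400) and 1.42 ± 0.18 in control mice (adjusted p = 7.53e-05), and Pbx4 was lower by -2.46 ± 0.61 in mutant mice (adjusted p = 0.0122) and -2.2 ± 0.38 in control mice (adjusted p = 6.30e-04). Pknox2 was called higher in control ileum (1.22 ± 0.20, adjusted p = 4.23e-04) and not in mutant ileum (0.33 ± 0.26, adjusted p = 0.378). The interaction did not reach the threshold for Pknox2 (-0.90 ± 0.33, adjusted p = 0.0863) or Meis1 (-0.82 ± 0.27, adjusted p = 0.0620). It was called for 1 of the 9 cofactors, with a smaller difference in mutant mice, where 8.99% of all tested genes were called.

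Of 6 ParaHox genes 3 were tested in each genotype, with 2 higher and 1 lower in ileum. Pdx1, known for the pancreas and the duodenum, was lower in ileum with log2 fold changes of -5.46 ± 0.60 in mutant mice (adjusted p = 4.28e-04) and -5.23 ± 0.86 in control mice (adjusted p = 0.00228). Cdx1 and Cdx2, the intestinal homeobox genes, were higher by smaller amounts than the Hox genes of groups 6 to 9. Cdx1 rose by 0.78 ± 0.10 in mutant and 0.55 ± 0.11 in control mice (adjusted p = 2.73e-04 and 0.00109), and Cdx2 by 0.56 ± 0.17 in mutant and 0.39 ± 0.13 in control mice (adjusted p = 0.0303 and 0.0262). Of 20 other regional transcription factors 14 were tested in mutant mice, with 4 higher and 3 lower in ileum (50.0% called), and 15 in control mice, with 6 higher and 4 lower (66.7%), against the 31.1% and 58.3% of all tested genes. Gata4, Gata6 and Onecut2 were lower in ileum in both genotypes, for example Onecut2 with a log2 fold change of -4.67 ± 0.37 in mutant mice (adjusted p = 3.48e-05) and -3.99 ± 0.46 in control mice (adjusted p = 3.35e-04).

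Retinoic acid is known to switch on Hox genes of low paralog number, and Polycomb and trithorax proteins to keep them off or on. Of 19 retinoic acid pathway genes 13 were tested in mutant mice, with 1 higher and 6 lower in ileum (53.8% called), and 15 in control mice, with 3 higher and 8 lower (73.3%). The synthetic enzymes Rdh10 and Aldh1a3 were lower in ileum, by -0.96 ± 0.17 and -1.75 ± 0.17 in mutant mice and by -1.16 ± 0.07 and -1.53 ± 0.09 in control mice (log2), and the receptor gene Rarg was higher, by 0.72 ± 0.22 in mutant mice and 0.90 ± 0.12 in control mice. All 19 Polycomb and trithorax genes were tested, with 1 higher and 2 lower in mutant ileum (15.8% called) and 5 higher and 5 lower in control ileum (52.6%), against the 31.1% and 58.3% of all tested genes. Their changes were small, for example 0.44 ± 0.08 in control mice for Cbx7 (adjusted p = 8.27e-04) and -0.12 ± 0.16 in mutant mice (adjusted p = 0.606). The interaction of Cbx7 was -0.57 ± 0.17 (adjusted p = 0.0498). This was the 1 interaction call among the 19 genes (5.26%), where 8.99% of all tested genes were called.

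Markers of the cell types known to carry Hox transcripts in the gut were counted in the same way, where 12.9% of all tested genes were higher in ileum of mutant mice and 28.0% in control mice. Of 10 smooth muscle genes 9 were higher in ileum of mutant mice (median log2 fold change 1.05) and 10 in control mice (1.43), and of 8 fibroblast genes 8 were higher in both genotypes (1.21 in mutant mice and 1.0 in control mice). The medians over all tested genes were -0.0120 in mutant mice and -0.00497 in control mice. Of 8 enteric neuron genes 1 was higher in mutant mice (median 0.22) and 7 in control mice (0.88), and of 4 enteric glia genes 0 in mutant mice and 2 in control mice. The share of enteric neuron genes in mutant mice, 12.5%, was close to that of all genes. The interaction was called for 1 of the 8 enteric neuron genes, Ret, and there with a larger value in mutant mice (1.08 ± 0.25, adjusted p = 0.0186), while the median over the 8 was -0.61 (log2). This share, 12.5%, was near the 8.99% of all tested genes called for the interaction. It was also called for 1 of 8 fibroblast genes, and for 0 of the smooth muscle, enteric glia and epithelial genes. Of 8 epithelial genes 3 were higher in mutant mice, and 4 were higher and 2 lower in control mice. The part of muscle and connective tissue content in the Hox differences was not tested beyond the covariate.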

How the data were processed

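Total RNA was measured in 16 libraries of 4 groups (ileum and duodenum of mutant and control mice, 4 mice each). Replicates are separate mice, per the labels. The deposited values are the authors' raw counts per gene, whole numbers for 55359 genes. Per the submitters' processing notes, mm39 was the build, and HTSeq 0.6.1p1, STAR 2.5.3a, Bowtie2 2.2.8 and cutadapt 1.10 were used. Which annotation release and which strand option the counting had is not given in the sources used here. Gene names, exon lengths and exon overlaps came from GENCODE M21 and sequences from RefSeq (GRCm38.p6), both on an older build. It named 52083 identifiers, and the 3276 without a name held 1.02% of counts. No table column was left without a sample (0), and no 2 libraries were identical.

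Counts were tested with edgeR 4.0.16 (limma 3.58.1, R 4.3.3): filterByExpr, scaling by the trimmed mean of M values, the robust quasi-likelihood F test and Benjamini-Hochberg adjustment over all tested genes, at 0.05. Each tissue comparison and each genotype comparison used its own 8 libraries, and the interaction used all 16. Errors of log2 fold changes are SE, those of CPM are SD over 4 mice. Levels of different genes are compared per kb of exon. The steps were tested on simulated data. Mouse numbers pair the tissues: residuals of the 2 libraries of a mouse, after group means were removed, correlated at r of 0.228 to 0.491, and best with their own mouse in 7 of 8. Blocking by mouse is an alternative, beside DESeq2 1.42.0, limma-voom, other filters, leaving out mice and a smooth muscle covariate. Depth of 40.9 to 67.2 M counts puts the limit of 3 counts over a group under 0.02 CPM.

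The Hox genes, gene lists and tests were chosen with earlier results of these data known. Values in every library are given for the 4 Hox genes of each cluster with the highest mean CPM, for those called between the genotypes and for those called in 1 tissue comparison only, and for others by range; of the gene lists, up to 4 called members with the smallest p in control mice are named. A few genes that these rules would name are not reported here. The enteroendocrine, exocrine pancreas and B cell lists served to describe the libraries. Of 8 enteroendocrine genes, 8 were lower in mutant ileum and 6 in mutant duodenum than in control mice. Of 8 exocrine pancreas genes, 7 were tested in mutant mice and all 7 were lower in ileum than in duodenum. In control mice 0 were called, where 58.3% of all tested genes were called. Of 6 B cell genes, 5 were lower in mutant ileum, while in duodenum only 2 were tested, with 0 called. The shares of all tested genes called lower were 14.6% in mutant ileum and 5.11% in mutant duodenum against control mice. Between the tissues of mutant mice 18.2% were lower in ileum.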

Additional observations from a re-analysis of the deposited data

Results flagged for a closer look

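Of 97 groups of 4 libraries with at least 10 counts for a Hox gene, 3 held a library that lay far from the rest by Dixon's test at the 95% level, where chance alone gives about 1 in 20 groups. Hoxa9 was at 0.610 CPM (38 counts) in the duodenum of control mouse NF_134, against 0 in the other 3 control duodenum libraries. Hoxa10 was at 0.241 CPM (15 counts) in the same library, again against 0 in the other 3. Hoxb2 was at 1.67 CPM (80 counts) in the duodenum of mutant mouse NFVCT_168, against 2.22 to 2.30 CPM in the other 3 mutant duodenum libraries.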

How the results depend on the processing

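In mutant mice 14 Hox genes were called between ileum and duodenum, 11 to 13 when 1 mouse was left out, and 10 to 16 under the other settings except the smooth muscle covariate, which left 4 and under which 157 of all 17852 tested genes were called, against 5547 without it. In control mice 18 were called, 15 to 17 when 1 mouse was left out, 12 to 20 under the others, and 2 with the covariate (1517 of all 18217 tested genes, against 10620 without it), under which Hoxb3 (-0.65), Hoxb4 (-0.37) and Hoxd9 (-1.24) changed sign without being called. Of the Hox genes that lost the call with the covariate, Hoxb6, Hoxc6 and Hoxc9 kept log2 fold changes of 3.66, 4.37 and 4.25 in mutant mice. In control mice their lowest values over all settings were 1.76, 3.85 and 2.97, against 4.49, 4.52 and 7.20 in the main fit. The lowest values of Hoxd8, which also lost the call, were 0.72 in mutant and 0.34 in control mice, against 2.18 and 2.14. The covariate does not overlap between the tissues, so that muscle content and tissue cannot be told apart. The rho of fold change against paralog number was 0.79 to 0.85 in mutant mice and 0.75 to 0.87 in control mice when 1 mouse was left out. Between the genotypes, the count in duodenum stayed at 0 under all settings, and so did that of the interaction. In ileum it was 1, and 0 to 1 when 1 mouse was left out. It was 0 with all 16 libraries in 1 fit, 0 without mutant mice NFVCT_167 and NFVCT_177, and 2 with the covariate (Hoxb4 gained). Without control mice NF_134 and NF_154 the 1 call was Hoxb5 and not Hoxc6. The cause of these shifts was not tested. With the mouse number as a replicate block, 15 Hox genes were called in mutant mice (Hoxc4 gained), 18 in control mice and 0 in the interaction, and no other call changed. The settings that leave out mice NF_134 and NF_154 or NFVCT_167 and NFVCT_177 were chosen after seeing the data. Depth limits the genes of paralog groups 9 to 13 in duodenum, where most had under 20 counts in a group.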
